A study of Mus musculus with 72 samples.

Results

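Colons of mice given a control antibody before acute chemical colitis were compared with colons of mice that had the same colitis and no injection. The comparison used 23 of the 72 arrays of the series, chosen by their labels: 15 from mice given the control antibody and 8 from untreated mice. All mice were wild-type Balb/c animals. Both groups received trinitrobenzene sulfonic acid (TNBS) by the intrarectal route on day 0, at 70 µg per g body weight as a 2% solution in a mixture of buffered saline and ethanol, and were killed on day 4. The control antibody was an IgG2a against human CD20, given intraperitoneally at 10 mg/kg, 1 hour before TNBS. Untreated mice had no injection, so the effect of the antibody and the effect of an injection cannot be told apart. Experiment 7 held 8 control IgG and 4 untreated mice, and experiment 10 held 7 control IgG and 4 untreated mice. Levels of 8 naive mice without colitis, all from experiment 10, are given as a description where they help to place the others. RNA came from a piece cut from the frozen, rolled colon, with 1 array per mouse, and the mice's age and sex are not given in the sources used here. Within each experiment the running numbers of the arrays put all untreated mice before the control IgG mice, so array order and group cannot be told apart.

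TNBS, given in ethanol that breaks the mucosal barrier, binds to proteins of the colon and turns them into targets of T cells, and the injury draws in neutrophils and monocytes. An antibody against human CD20 has no target in the mouse and serves as the reference for therapeutic antibodies of the same isotype. The Fc part of mouse IgG2a can still bind Fc gamma receptors on macrophages and other myeloid cells and can engage complement, whose first component C1q recognises clustered IgG. Interferon gamma, made by T and NK cells, acts on gamma-activated sites in promoters and induces Irf1, which in turn acts on interferon response elements of further genes.

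Expression is given as log2 values from the deposited table, whose lowest value, 2.08, acts as a floor, and 1 unit of difference equals a doubling. Differences are control IgG minus untreated, and a gene was called when its adjusted p in a limma fit with experiment as a term was under 0.05. Array medians ran between 4.60 and 4.77 over the whole series, and the 23 arrays correlated with each other at r of 0.958 to 0.994. Markers of the absorptive colon epithelium averaged 11.7 log2 units on the control IgG arrays of each experiment, with 11.5 and 11.7 on the untreated arrays of experiments 7 and 10, which fits the labelled tissue. Some arrays stood apart from the others. Untreated mice 2 and 3 of experiment 10 had 36.1% and 35.999% of probe sets within 0.1 of the floor, against 37.4% to 37.8% on the control IgG and remaining untreated arrays. Genes silent in colon were read there too: Csn1s2a, a casein gene of the mammary gland chosen after its values were seen, lay at the floor, 2.08, on all control IgG arrays of experiment 10 and averaged 5.46 ± 3.91 on the untreated arrays (SD, n = 4). Untreated mouse 5 of experiment 7 lay apart from the other 3 untreated mice of its experiment in many of the genes below.

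Tissue that is not colon also varied among the pieces. Exocrine pancreas markers averaged 5.97 ± 1.03 on control IgG arrays and 10.1 ± 2.35 on untreated arrays in experiment 7 (SD, n = 8 and n = 4). In experiment 10 the order was the opposite, with 10.3 ± 2.61 on control IgG arrays and 7.25 ± 0.83 on untreated arrays (SD, n = 7 and n = 4). The chymotrypsinogen gene Ctrb1, chosen after its values were seen like the other genes of this paragraph, had a median of 3.04 on control IgG arrays and 12.7 on untreated arrays in experiment 7. Its medians in experiment 10 were 12.5 on control IgG arrays and 7.70 on untreated arrays. Skeletal muscle troponin Tnnt3 lay between 10.3 and 14.1 on control IgG arrays of experiment 7 and between 10.96 and 13.95 on untreated arrays. Its values in experiment 10 were 6.06 to 12.8 on control IgG arrays and 10.5 to 12.6 on untreated arrays. Krt1, a keratin of squamous skin-type epithelium, lay in experiment 7 between 3.71 and 12.4 on control IgG arrays and between 5.01 and 11.1 on untreated arrays. In experiment 10 Krt1 lay between 8.00 and 11.2 on control IgG arrays and between 9.60 and 12.7 on untreated arrays. None of the 14 pancreatic, 15 skeletal muscle and 15 squamous markers tested passed in the comparison of both experiments. The list medians of the difference had opposite signs in experiments 7 and 10. They were -4.46 and 3.31 for pancreas, 0.28 and -1.12 for muscle and 1.35 and -1.35 for squamous epithelium. A fit of 1 common difference can hardly call such markers, so the missing calls do not show that the groups were balanced within an experiment. With the mean level of the pancreatic, the muscle or the squamous markers as a covariate the fit called 1061 genes (540 higher, 521 lower), 919 genes and 890 genes, and each of these sets included all genes called without a covariate.

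**Figure D1:**
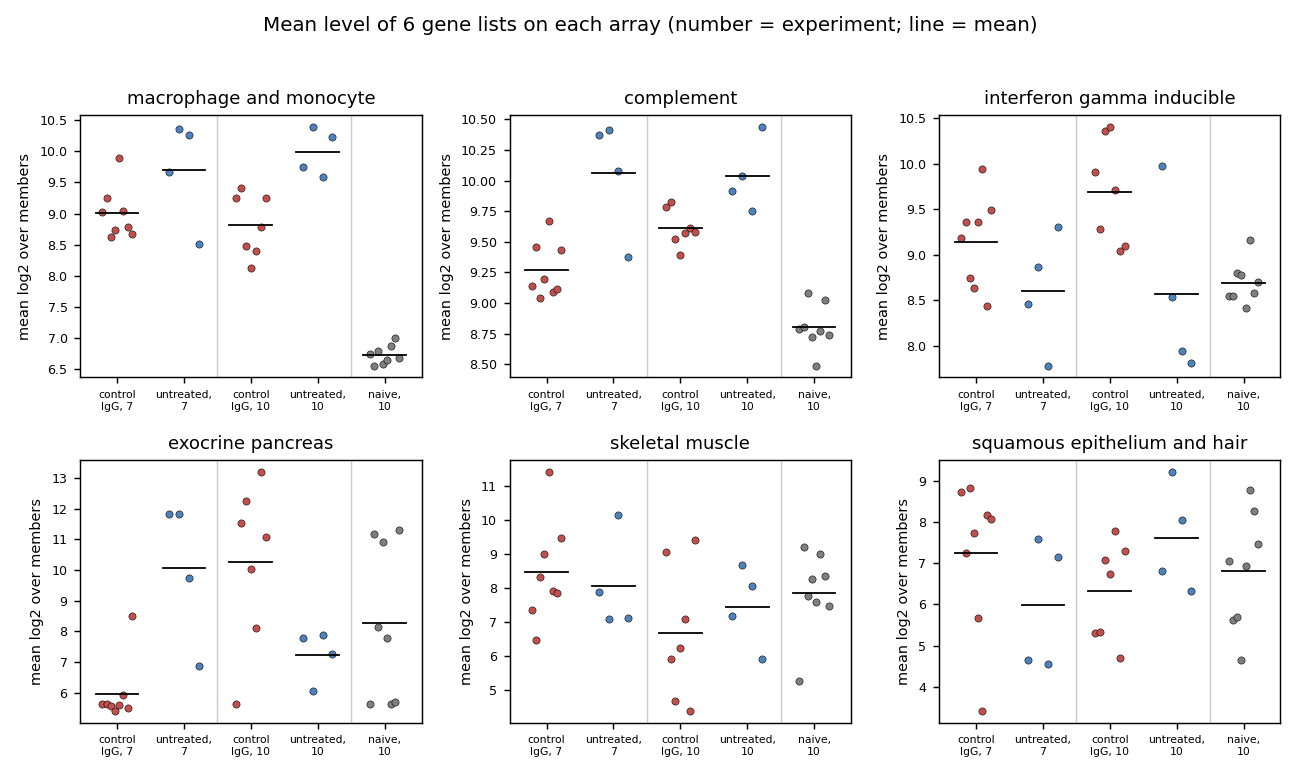
Mean log2 level of the tested members of 6 gene lists on each array (points) with the group mean (line), for control IgG and untreated mice of experiments 7 and 10 and naive mice of experiment 10. Group means of the macrophage and complement lists lie lower with control IgG in both experiments, with overlapping arrays except for the macrophage list in experiment 10, whereas pancreas, muscle and squamous means scatter widely.

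Genes called lower in mice given control IgG than in untreated mice included macrophage, complement, Fc receptor and endothelial genes, and a smaller set of mostly modest rises included Irf1 and other interferon-induced genes. Of 12534 genes tested, 711 (5.67%) passed, 282 of them higher (2.25%) and 429 lower (3.42%) with control IgG. These shares over all genes are the background for the counts of called list members below. The falls were the larger changes: 92 genes fell and 7 rose by 1 log2 unit or more, while the median size over all called genes was 0.40. The median difference over all tested genes was 0.03. Every called gene had the same sign in both experiments, which a fit of both together favours by its construction. The split depended on untreated mice 2 and 3 of experiment 10: without them 599 genes passed, 72 higher and 527 lower, of which 360 were among the 711.

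The count also rested on single mice. It rose to 1788 without untreated mouse 5 of experiment 7 and to 1292 without control IgG mouse 5 of that experiment. It fell to 215 and 199 without untreated mice 2 and 3 of experiment 7, to 243 and 231 without untreated mice 2 and 5 of experiment 10, and to 405, 406 and 457 without control IgG mice 4, 5 and 6 of experiment 10. None of the 73 called genes named below changed direction in a fit that left out 1 mouse, and 22 of them passed in every such fit and also without the pair of arrays that stood apart. These 22 were the falls Ngp, Slc13a3, Tnfsf11, Angptl4, Cfp, C3ar1, Il33, Fcgr1, Mmp19, Acot1, Pf4, C1qa, Cxcl12, Galc, Lyz1, Ctsd and Grn and the rises Akr1c21, Pax8, Myl7, Irf1 and Hk2.

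**Figure D2:**
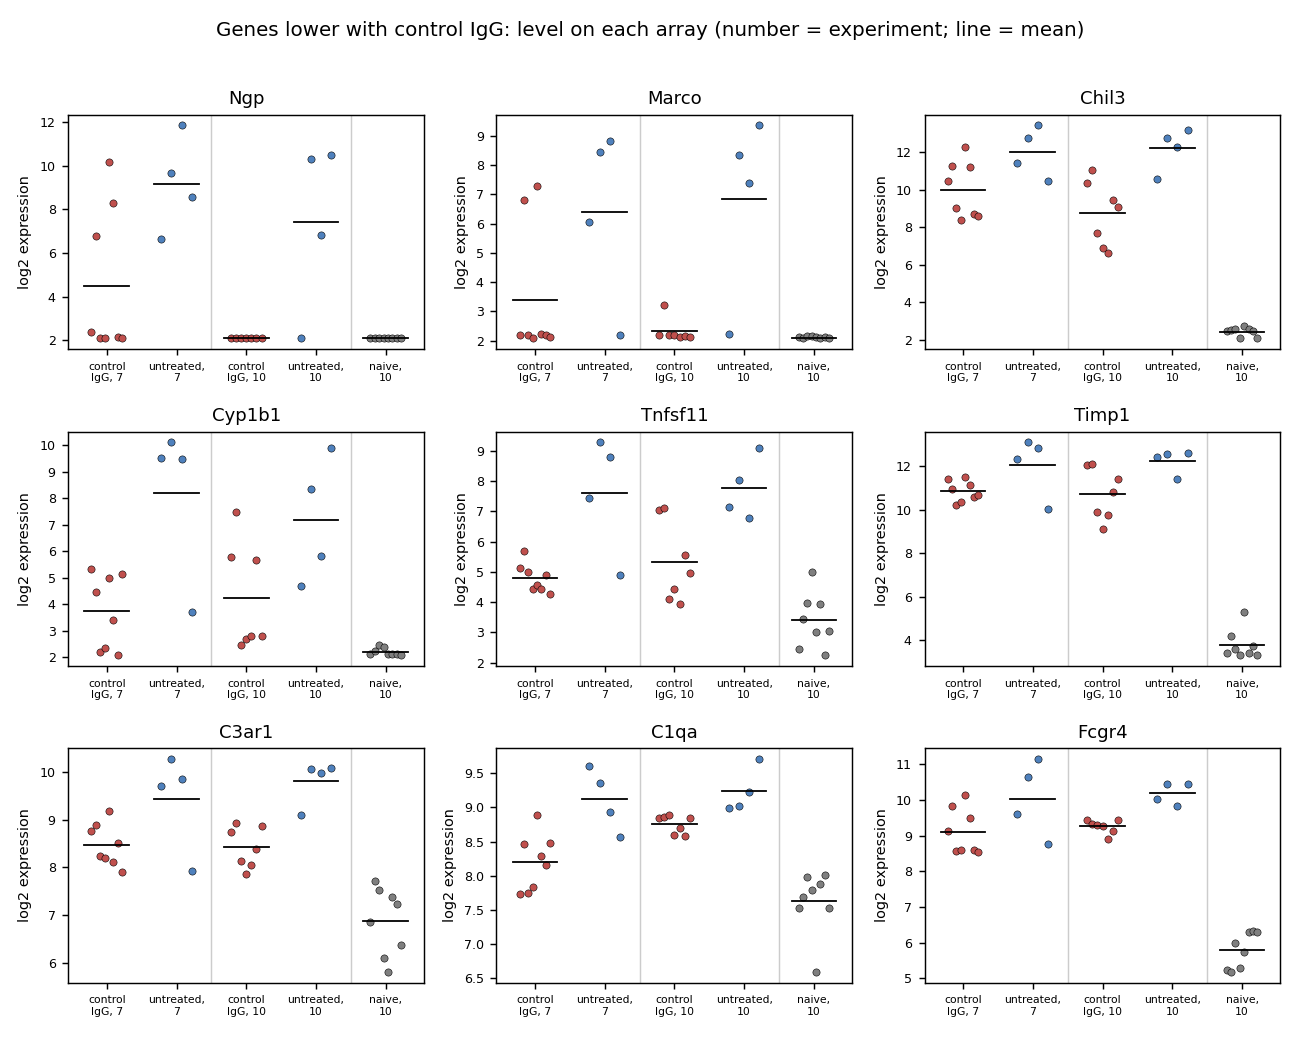
Log2 expression on each array (points) and group mean (line) of 9 genes that fell with control IgG, by group and experiment, with naive mice for comparison. In experiment 7 untreated mouse 5 lies with the control IgG mice for Marco, Cyp1b1, Tnfsf11 and C3ar1, while in experiment 10 the control IgG mice lie below all 4 untreated mice for C3ar1, C1qa and Fcgr4.

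The steepest fall was that of Ngp, neutrophilic granule protein, made by immature neutrophils. Its level was at or near the floor on most control IgG arrays, with a lowest, median and highest value of 2.08, 2.26 and 10.2 in experiment 7 and 2.08, 2.08 and 2.11 in experiment 10. Untreated mice 1, 2, 3 and 5 had 6.65, 9.66, 11.8 and 8.54 in experiment 7 and 2.09, 10.3, 6.81 and 10.5 in experiment 10. In all, 11 of 15 control IgG arrays and 1 of 8 untreated arrays lay within 0.1 of the floor, where all 8 naive arrays lay as well, and the groups overlapped in both experiments. The fitted difference was -5.00 ± 1.12 (SE, adjusted p = 0.0182), a value set in part by arrays at the floor.

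Marco, a scavenger receptor of macrophages, lay between 2.08 and 7.27 on control IgG arrays of experiment 7, with a median of 2.20, and untreated mice had 6.06, 8.46, 8.82 and 2.20. In experiment 10 control IgG mice lay between 2.11 and 3.23 and untreated mice had 2.22, 8.36, 7.40 and 9.35. So 6 of 8 untreated mice had a clear signal and the remaining mice, 1 in each experiment, lay with the low control IgG arrays. Its difference was -3.74 ± 0.93 (SE, adjusted p = 0.0266), and the call was lost without untreated mouse 3 of experiment 7 (adjusted p = 0.0648) and without untreated mice 2 and 3 of experiment 10 (adjusted p = 0.0862).

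Cyp1b1, a cytochrome P450 enzyme that is induced through the aryl hydrocarbon receptor and expressed in stroma and myeloid cells, lay between 2.08 and 5.32 on control IgG arrays of experiment 7 against 9.51, 10.1, 9.48 and 3.71 in untreated mice. In experiment 10 control IgG mice lay between 2.47 and 7.48, with a median of 2.81, and untreated mice had 4.67, 8.35, 5.81 and 9.88. The difference was -3.72 ± 0.87 (SE, adjusted p = 0.0220), lost without untreated mouse 2 of experiment 7 (adjusted p = 0.0561). Slc13a3, a sodium-coupled dicarboxylate transporter, fell by 3.61 ± 0.76 (SE, adjusted p = 0.0157), with means of 5.40 in control IgG mice and 8.99 in untreated mice. Tnfsf11, the cytokine RANKL that acts on osteoclasts and on the epithelium over lymphoid follicles, lay between 4.28 and 5.69 on control IgG arrays of experiment 7, against 7.43, 9.29, 8.81 and 4.89 in untreated mice. Its values in experiment 10 were 3.94 to 7.12 in control IgG mice and 7.16, 8.03, 6.77 and 9.08 in untreated mice. RANKL thus overlapped by 1 untreated mouse in each experiment, and its difference was -2.63 ± 0.49 (SE, adjusted p = 0.0120).

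Chil3, a chitinase-like protein of activated macrophages and neutrophils, averaged 9.41 in control IgG mice and 12.1 in untreated mice, and fell by 2.73 ± 0.63 (SE, adjusted p = 0.0215). Naive mice averaged 2.44 for Chil3, so the level with control IgG stayed far above that of colon without colitis. Ptx3, a soluble pattern recognition protein, fell by 2.61 ± 0.69 (SE, adjusted p = 0.0309). Ifitm6, a membrane protein of myeloid cells, fell by 2.52 ± 0.60 (SE, adjusted p = 0.0226), and in experiment 10 its highest control IgG value, 8.28, lay under its lowest untreated value, 8.77. Without untreated mouse 3 of experiment 7 the adjusted p values of Chil3, Ptx3 and Ifitm6 were 0.0528, 0.0776 and 0.0570.

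Of 29 macrophage and monocyte markers tested, 15 fell and none rose, against 3.42% lower over all genes, and the median difference of the list was -0.99. Only 1 of the 29 lay above 0. Besides Marco and Chil3, the integrin subunit Itgam averaged 2.77 in control IgG mice and 4.26 in untreated mice and fell by 1.501 ± 0.36 (SE, adjusted p = 0.0230). Its control IgG median of 2.50 lay near the floor, 2.08, and 5 of 8 naive arrays lay within 0.1 of it, so the size of this fall is uncertain. Emilin2, an extracellular glycoprotein, fell by 1.46 ± 0.42 (SE, adjusted p = 0.0439), but passed in only 6 of 23 fits that left out 1 mouse. The list mean was 9.002 ± 0.42 in control IgG mice and 9.70 ± 0.85 in untreated mice of experiment 7 (SD, n = 8 and n = 4). In experiment 10 it was 8.82 ± 0.50 in control IgG mice and 9.99 ± 0.38 in untreated mice (SD, n = 7 and n = 4), and naive mice averaged 6.74. In a piece of whole colon, fewer cells of a type and less RNA per cell cannot be told apart. The number of called members was 8 without untreated mouse 2 or 3 of experiment 7 or mouse 5 of experiment 10, and 11 without the pair of untreated arrays that stood apart.

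Ctsd, Galc and Grn had some of the smallest p values and were picked for description after their values were seen. Ctsd, the lysosomal protease cathepsin D, lay between 11.82 and 12.11 on control IgG arrays of experiment 7 and at 12.21, 12.36, 12.31 and 11.95 in untreated mice, a fall by 0.31 ± 0.05 over both experiments (SE, adjusted p = 0.00463). Galc, which degrades galactosylceramide in lysosomes, lay between 8.83 and 9.12 on all control IgG arrays and between 9.13 and 9.51 on all untreated arrays. Galc was the single called gene among those named here whose groups did not overlap over both experiments. How many of all tested genes were separate in this way was not counted. Galc fell by 0.33 ± 0.05 (SE, adjusted p = 0.00463), although a dimmer probe set of it differed by -0.10. Grn, the gene of progranulin, a secreted protein that also reaches lysosomes, fell by 0.28 ± 0.05 (SE, adjusted p = 0.00684). Naive mice had 11.9 for Ctsd and 11.8 for Grn, close to the control IgG means of 11.9 and 11.8, and 9.24 for Galc, between the control IgG mean of 8.97 and the untreated mean of 9.30.

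All 17 tested markers of mature neutrophils had lower fitted levels with control IgG, with a median of -1.34, but 2 of 17 passed, Ifitm6 and Fpr2. Fpr2, a receptor for formylated peptides, averaged 9.75 in control IgG mice and 11.4 in untreated mice and fell by 1.70 ± 0.46 (SE, adjusted p = 0.0361). The list's median difference was -0.23 in experiment 7 and -2.24 in experiment 10. S100a8 and S100a9, the subunits of calprotectin and the most abundant products of neutrophils, were chosen after their values were seen and did not pass. S100a8 averaged 13.8 ± 0.94 in control IgG mice and 14.6 ± 0.45 in untreated mice (SD, n = 15 and n = 8), a difference of -0.84 ± 0.33 (SE, adjusted p = 0.112). S100a9 differed by -0.59 ± 0.25 (SE, adjusted p = 0.141). Of 5 tested granule genes, Ngp and Lyz1 fell. Lyz1, a lysozyme of Paneth cells, was read by a probe set that may also bind the near-identical Lyz2 of macrophages, so its fall by 0.32 ± 0.07 (SE, adjusted p = 0.0157) cannot be assigned to either gene.

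Of the complement list, 9 of 14 tested members fell and none rose, all 14 had lower fitted levels, and the median difference was -0.62. The called members were the C1q chains C1qa, C1qb and C1qc, the proteases C1ra and C1s1, the C1 inhibitor Serping1, the alternative pathway protease Cfb, properdin (Cfp), which stabilises the alternative convertase, and the C3a receptor C3ar1. Between 8 and 10 members were called when any 1 mouse was left out, and 9 without the pair of arrays that stood apart. Properdin lay between 7.75 and 8.94 on control IgG arrays of experiment 7, against 10.0, 10.2, 9.98 and 8.37 in untreated mice. In experiment 10 Cfp lay between 8.11 and 9.29 in control IgG mice and at 9.33, 9.72, 9.64 and 10.2 in untreated mice, without overlap. Its difference was -1.21 ± 0.21 (SE, adjusted p = 0.00731), although the dimmer of its probe sets differed by 0.03.

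C3ar1, the receptor of myeloid cells for the anaphylatoxin C3a, averaged 8.45 in control IgG mice and 9.62 in untreated mice, and fell by 1.17 ± 0.24 (SE, adjusted p = 0.0154). C1qa, a chain of the molecule that binds antibody, lay between 7.73 and 8.89 on control IgG arrays of experiment 7, against 9.61, 9.36, 8.94 and 8.56 in untreated mice. Its values in experiment 10 were 8.58 to 8.89 in control IgG mice and 8.999, 9.01, 9.23 and 9.71 in untreated mice, so the groups were separate there and overlapped by untreated mouse 5 in experiment 7. The difference of C1qa was -0.70 ± 0.15 (SE, adjusted p = 0.0166). C1ra, which starts the protease cascade of the classical pathway, fell by 0.66 ± 0.17 (SE, adjusted p = 0.0271). The complement list averaged 9.27 ± 0.23 in control IgG mice and 10.1 ± 0.48 in untreated mice of experiment 7 (SD, n = 8 and n = 4), and 9.61 ± 0.15 in control IgG mice and 10.0 ± 0.29 in untreated mice of experiment 10 (SD, n = 7 and n = 4). Naive mice averaged 8.80.

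Of 11 tested genes of the Fc receptor list, 5 fell with control IgG, none rose and 6 did not pass, and the median was -0.58. Fcgr1, the high-affinity activating receptor for IgG2a, lay between 6.64 and 7.91 on control IgG arrays of experiment 7 and at 8.34, 9.12, 8.88 and 7.37 in untreated mice. Control IgG mice of experiment 10 lay between 7.51 and 8.44 for Fcgr1, and untreated mice had 9.06, 8.54, 8.27 and 8.86. Only 1 untreated mouse in each experiment reached into the control IgG range, and the difference was -0.92 ± 0.20 (SE, adjusted p = 0.0169). Fcgr4, a further activating receptor for IgG2a and IgG2b, lay between 8.55 and 10.1 on control IgG arrays of experiment 7, against 9.61, 10.64, 11.15 and 8.76 in untreated mice. In experiment 10 it lay between 8.92 and 9.45 in control IgG mice and at 10.03, 10.45, 9.83 and 10.45 in untreated mice, without overlap. The difference of Fcgr4 was -0.93 ± 0.25 (SE, adjusted p = 0.0325), with an adjusted p of 0.0605 without the pair of arrays that stood apart.

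Fcer1g, the signalling chain shared by the activating receptors, fell by 0.89 ± 0.21 (SE, adjusted p = 0.0220), and Fcgr2b, the inhibitory receptor, fell by 0.52 ± 0.13 (SE, adjusted p = 0.0233). The called members thus included the activating receptors Fcgr1 and Fcgr4, their common chain and the inhibitory receptor. Clec4a2, an inhibitory lectin of myeloid cells kept on this list, fell by 1.61 ± 0.37 (SE, adjusted p = 0.0209). Fcgr3, the third activating Fc gamma receptor, averaged 11.2 in control IgG mice and 11.9 in untreated mice and did not pass (adjusted p = 0.0577), and the phosphatase Inpp5d, which acts below the inhibitory receptor, did not pass either (-0.58 ± 0.18 (SE), adjusted p = 0.0573). The remaining tested members did not pass: the neonatal Fc receptor Fcgrt (-0.21 ± 0.09, SE), the epithelial polymeric immunoglobulin receptor Pigr (0.04 ± 0.03, SE), the cytosolic antibody receptor Trim21 (0.19 ± 0.07, SE) and the kinase Syk (-0.01 ± 0.07, SE). Fcer1a, Fcer2a, Fcamr and Fcrla were too dim to test and Lyn had no probe set of a single gene. Between 1 and 8 members passed when 1 mouse was left out: 1 without untreated mouse 2 or 3 of experiment 7, 2 without untreated mouse 2 or 5 of experiment 10, and 8 without untreated mouse 5 of experiment 7. These 8 included Trim21, which was higher. Naive mice averaged 4.50 for Fcgr1 and 5.79 for Fcgr4, below every colitic group.

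**Figure D3:**
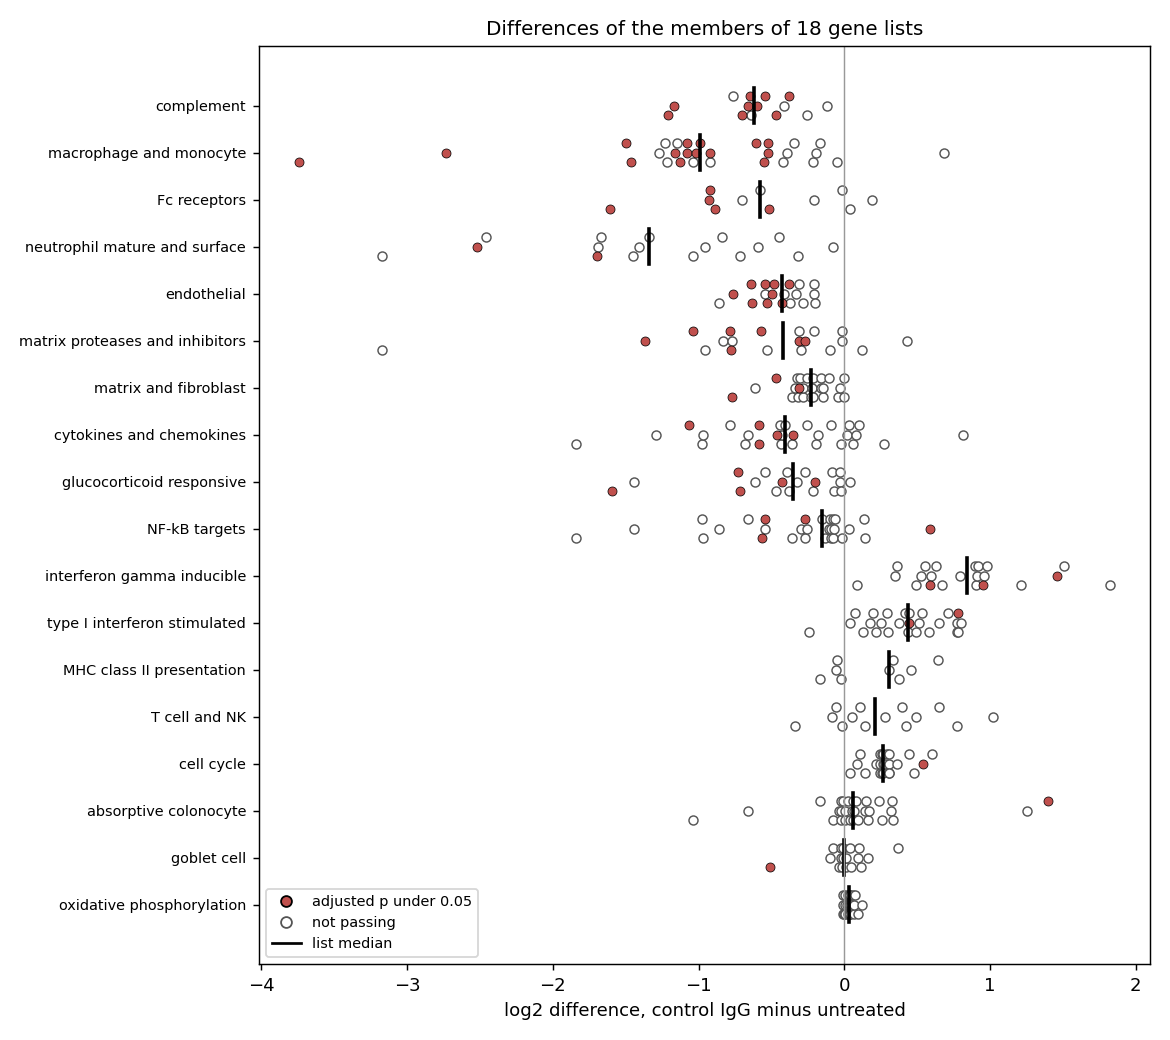
Log2 difference, control IgG minus untreated, of each tested member (points, filled where the adjusted p was under 0.05) of 18 gene lists, with the list median (line). All 14 complement and all 19 endothelial members lie below 0 and all 22 interferon gamma inducible members lie above 0, whereas 9 goblet cell members lie above and 9 below 0.

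Of 19 tested endothelial markers, 9 fell, none rose, and the median was -0.43. Vcam1, which holds leukocytes to inflamed endothelium, averaged 10.9 in control IgG mice and 11.5 in untreated mice and fell by 0.55 ± 0.14 (SE, adjusted p = 0.0267). Pecam1, the junction protein CD31, fell by 0.64 ± 0.18 (SE, adjusted p = 0.0377), and Ackr1, a chemokine-binding receptor of venules, fell by 0.77 ± 0.22 (SE, adjusted p = 0.0403). Von Willebrand factor, Vwf, fell by 0.63 ± 0.19 (SE, adjusted p = 0.0489). The endothelial count was less steady than that of complement: between 1 and 4 members passed without any 1 of untreated mice 1, 2 and 3 or control IgG mice 1, 2, 3, 4, 6 and 8 of experiment 7, untreated mice 2 and 5 or control IgG mice 4, 5, 6, 7 and 8 of experiment 10. It was again 9 without the pair of arrays that stood apart. Pf4, a chemokine of platelets and of some macrophages, lay between 10.9 and 11.5 on control IgG arrays of experiment 7, against 11.9, 12.5, 11.9 and 11.1 in untreated mice, and fell by 0.74 ± 0.14 over both experiments (SE, adjusted p = 0.0146).

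Among proteases that cut the extracellular matrix and their inhibitors, 7 of 20 tested members fell, none rose, and the median was -0.42. Timp1, an inhibitor of matrix metalloproteinases, averaged 10.8 in control IgG mice and 12.2 in untreated mice and fell by 1.37 ± 0.39 (SE, adjusted p = 0.0419). Naive colons had a Timp1 mean of 3.77. Mmp3, a broad matrix protease of fibroblasts, fell by 1.04 ± 0.29 (SE, adjusted p = 0.0403), Mmp19 by 0.78 ± 0.17 (SE, adjusted p = 0.0157) and Adamts5, which cuts proteoglycans, by 0.78 ± 0.22 (SE, adjusted p = 0.0398). Both a protease and its inhibitors were thus among the falls. The number of called members ran from 1 without untreated mouse 2 of experiment 7 to 11 without untreated mouse 5 of that experiment, and was 4 without the pair of arrays that stood apart. It was 2 without untreated mouse 3 or control IgG mouse 2 of experiment 7, untreated mouse 2 or 5 of experiment 10, or control IgG mouse 4, 5 or 7 of experiment 10. It was 3 without control IgG mouse 3, 4 or 8 of experiment 7, and 4 without untreated mouse 1 or control IgG mouse 1 of experiment 7 or control IgG mouse 6 of experiment 10. Of 25 matrix and fibroblast genes, 3 fell: the collagen-crosslinking enzyme Lox by 0.77 ± 0.21 (SE, adjusted p = 0.0385), the stromal glycoprotein Pdpn by 0.47 ± 0.12 (SE, adjusted p = 0.0327) and the proteoglycan Dcn by 0.31 ± 0.08 (SE, adjusted p = 0.0297). That count was 0 without untreated mouse 1, 2 or 3 of experiment 7 or untreated mouse 2 or 5 of experiment 10, and 1 without control IgG mouse 4, 5 or 6 of experiment 10. It was 6 without control IgG mouse 5 of experiment 7 or mouse 1 of experiment 10, 7 without control IgG mouse 2 of experiment 10, 11 without untreated mouse 5 of experiment 7 or without the pair that stood apart, and 13 without untreated mouse 3 of experiment 10.

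Of 29 tested cytokine and chemokine genes, 5 fell and none rose, with a median of -0.40. Il33, an alarmin released by damaged epithelium and stroma, lay between 8.95 and 9.84 on control IgG arrays of experiment 7, against 11.04, 11.43, 11.03 and 9.14 in untreated mice. Its experiment 10 values were 9.24 to 10.4 in control IgG mice and 10.6, 10.8, 10.1 and 11.2 in untreated mice, so that 1 untreated mouse in each experiment reached the control IgG range. The difference of Il33 was -1.06 ± 0.23 (SE, adjusted p = 0.0169). Cxcl12, a stromal chemokine that holds leukocytes in tissue, averaged 12.5 in control IgG mice and 13.1 in untreated mice, and fell by 0.58 ± 0.09 (SE, adjusted p = 0.00540). Csf1, the growth factor of macrophages, fell by 0.59 ± 0.16 (SE, adjusted p = 0.0365), and the chemokine Cxcl14 fell by 0.46 ± 0.12 (SE, adjusted p = 0.0267). The inflammatory cytokine Il1b, named after its values were seen, averaged 12.7 ± 0.96 in control IgG mice and 12.8 ± 1.20 in untreated mice (SD, n = 15 and n = 8) and did not pass, with a difference of 0.90 in experiment 7 and -1.13 in experiment 10. Without untreated mouse 2 or 3 of experiment 7 or untreated mouse 5 of experiment 10 the list had 3 called members, and without untreated mouse 5 of experiment 7 it had 13, of which 12 were lower.

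The tumour necrosis factor receptors and NF-kB subunits did not pass. Tnfrsf1a and Tnfrsf1b, the receptors of TNF, differed by -0.21 ± 0.08 (SE, adjusted p = 0.116) and -0.18 ± 0.11 (SE, adjusted p = 0.304). Tnfrsf12a, the receptor Fn14 of the cytokine TWEAK, averaged 8.94 in control IgG mice and 8.84 in untreated mice, a difference of 0.10 ± 0.19 (SE, adjusted p = 0.756). Rela, Relb and Nfkb2, subunits of NF-kB, differed by -0.09 ± 0.04, -0.08 ± 0.09 and -0.11 ± 0.09 (SE), and the inhibitor Nfkbia by -0.13 ± 0.07 (SE). Tnf itself was too dim to test, with 9 of 15 control IgG arrays, 5 of 8 untreated arrays and all 8 naive arrays within 0.1 of the floor, and the TWEAK gene Tnfsf12 had no probe set of a single gene. Of 29 tested NF-kB target genes, 3 fell and 1 rose: Nfkbie, an inhibitor of NF-kB, by 0.56 ± 0.16 (SE, adjusted p = 0.0403), Vcam1, the mitochondrial superoxide dismutase Sod2 by 0.27 ± 0.07 (SE, adjusted p = 0.0351), and Irf1 upwards. Further Sod2 probe sets differed by -0.28, -0.08 and -0.08, the second of these nearly as bright as the one used (means of 12.6 and 12.7). RANKL was the called member among 8 tested genes of the non-canonical NF-kB list. Irf1 passed in every fit that left out 1 mouse and is part of each of the following counts. The NF-kB target count was 1, Irf1 alone and no fall, without untreated mouse 2 or 3 of experiment 7 or mouse 2 or 5 of experiment 10. It was 2 without control IgG mouse 4 or 8 of experiment 7 or mouse 4, 5, 6 or 7 of experiment 10, and 10 without untreated mouse 5 of experiment 7.

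Interferon gamma inducible genes were higher with control IgG in their fitted levels, 22 of 22 above 0 with a median of 0.85, but 3 passed, against 2.25% higher over all genes. These were Gbp8, Batf2 and Irf1. The untreated group was uneven here, with untreated mouse 1 of experiment 10 at a list mean of 9.98 and the lowest mouse of that group at 7.80. The list mean was 9.14 ± 0.50 in control IgG mice and 8.60 ± 0.65 in untreated mice of experiment 7 (SD, n = 8 and n = 4). In experiment 10 it was 9.69 ± 0.57 in control IgG mice and 8.56 ± 0.99 in untreated mice (SD, n = 7 and n = 4), and naive mice averaged 8.69 ± 0.23 (SD, n = 8). The number of called members was 15 without untreated mouse 5 of experiment 7, 13 without untreated mouse 1 of experiment 10, 6 without control IgG mouse 5 or 7 of experiment 7, and 1 without untreated mouse 3 of experiment 7 or untreated mouse 2 or 5 of experiment 10. It was 1 without the pair of arrays that stood apart. With all 72 arrays sharing the spread 18 members passed, all higher.

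Irf1, a transcription factor induced by interferon gamma, was the most precisely measured of these rises. It lay between 11.2 and 11.5 on control IgG arrays of experiment 7, against 10.5, 10.8, 10.5 and 11.5 in untreated mice. In experiment 10 control IgG mice lay between 11.1 and 11.9 and untreated mice had 11.6, 10.7, 10.9 and 10.6. So 3 of 4 untreated mice in each experiment lay below every control IgG mouse and the remaining untreated mouse lay within their range. The difference was 0.59 ± 0.13 (SE, adjusted p = 0.0175). Naive mice lay between 11.54 and 11.69, above every control IgG mouse of experiment 7 (highest 11.51) and within the control IgG range of experiment 10. Of the 3 called genes only Irf1 had an entry in the promoter table used here. Its first listed promoter, from 250 bases before to 50 bases after the transcript start, is shown because it carries a match to the gamma-activated site TTCNNNGAA, read the same on both strands. RefSeq places it on the plus strand of GRCm38.p6 at chr11:53769764-53770063, and capitals mark the match, which begins 90 bases before the start.
Irf1 promoter: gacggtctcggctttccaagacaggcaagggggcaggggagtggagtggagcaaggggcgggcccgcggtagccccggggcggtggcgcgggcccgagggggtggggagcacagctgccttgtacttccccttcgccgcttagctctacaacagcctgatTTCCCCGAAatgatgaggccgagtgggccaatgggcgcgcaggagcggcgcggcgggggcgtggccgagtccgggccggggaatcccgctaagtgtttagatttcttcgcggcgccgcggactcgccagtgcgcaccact
The window of the other listed start of Irf1 held neither this motif nor the interferon response element core GAAANNGAA, and the first window held no match to the core on either strand. Among 32851 promoter windows of the same length, 8.3% held TTCNNNGAA and 8.56% held GAAANNGAA on either strand. A match describes these letters and is not a measured binding site.

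**Figure D4:**
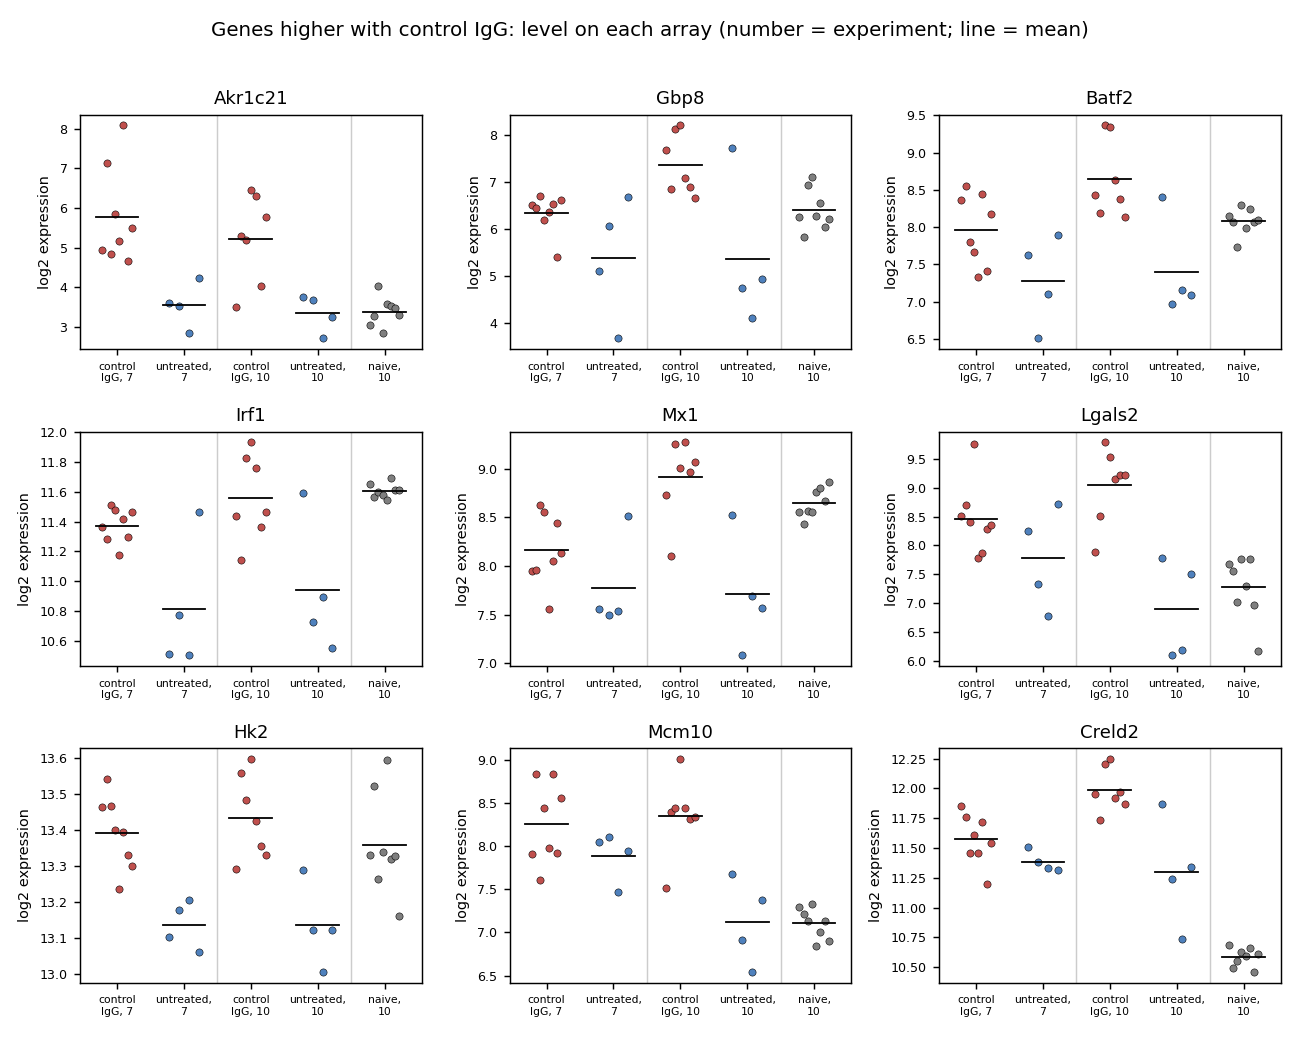
Log2 expression on each array (points) and group mean (line) of 9 genes that rose with control IgG, by group and experiment, with naive mice for comparison. For Irf1, 3 of 4 untreated mice in each experiment lie below all control IgG mice, whereas Akr1c21 is separate in experiment 7 and overlaps in experiment 10.

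Gbp8, a GTPase that attacks the vacuoles of intracellular microbes, lay between 5.42 and 6.70 on control IgG arrays of experiment 7 and at 5.11, 6.05, 3.68 and 6.68 in untreated mice. In experiment 10 it lay between 6.66 and 8.19 in control IgG mice and at 7.71, 4.74, 4.11 and 4.94 in untreated mice. Its difference was 1.46 ± 0.40 (SE, adjusted p = 0.0362), and other guanylate-binding proteins share much of its sequence. Batf2, a transcription factor of interferon-activated macrophages, averaged 8.28 in control IgG mice and 7.34 in untreated mice, a difference of 0.96 ± 0.23 (SE, adjusted p = 0.0238). Without untreated mice 2 and 3 of experiment 10 the adjusted p of Gbp8 was 0.161 and that of Batf2 was 0.0869. Larger fitted differences of the same list that did not pass were chosen after they were seen: the chemokine Cxcl9 at 1.82 ± 0.69 (SE, adjusted p = 0.106), the tryptophan-degrading enzyme Ido1 at 1.51 ± 0.53 (SE, adjusted p = 0.0847) and the GTPase Igtp at 0.98 ± 0.37 (SE, adjusted p = 0.106). Cxcl9 lay between 4.04 and 8.72 on control IgG arrays of experiment 7 and between 2.08 and 5.94 on untreated arrays.

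Of 26 type I interferon stimulated genes, 2 passed, both higher, and 25 lay above 0. In experiments 7 and 10 the list mean was 8.42 and 8.85 in control IgG mice and 8.09 and 8.34 in untreated mice. Naive mice averaged 9.18, above both colitic groups. Mx1, an antiviral GTPase, averaged 8.51 in control IgG mice and 7.75 in untreated mice, a difference of 0.78 ± 0.20 (SE, adjusted p = 0.0291). Stat2, a factor of the complex that carries the interferon signal to the nucleus, averaged 6.05 in control IgG mice and differed by 0.45 ± 0.13 (SE, adjusted p = 0.0428). Naive mice averaged 8.65 for Mx1 and 6.21 for Stat2, above the control IgG means of these 2 genes. Without the pair of arrays that stood apart their adjusted p values were 0.116 and 0.168. None of 9 MHC class II presentation genes and none of 14 T cell and NK markers passed.

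Among the largest rises, that of Akr1c21, a hydroxysteroid dehydrogenase, was the steepest. It lay between 4.66 and 8.08 on control IgG arrays of experiment 7, against 3.61, 3.52, 2.84 and 4.23 in untreated mice, without overlap. In experiment 10 it lay between 3.50 and 6.45 in control IgG mice and at 3.77, 3.68, 2.71 and 3.26 in untreated mice. The difference was 2.05 ± 0.42 (SE, adjusted p = 0.0152), and naive mice averaged 3.39, near the untreated level. Lgals2, a galectin of the surface epithelium, averaged 8.73 in control IgG mice and 7.34 in untreated mice, a difference of 1.40 ± 0.33 (SE, adjusted p = 0.0225), and was the called member among 30 absorptive colonocyte genes. Over all genes 2.25% were higher, so 1 call among 30 lies near that background.

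Pax8, a transcription factor of kidney and thyroid, differed by 1.20 ± 0.24 (SE, adjusted p = 0.0146) at low levels of 5.19 in control IgG mice and 3.97 in untreated mice. Myl7, the atrial myosin light chain, averaged 8.57 in control IgG mice and 7.46 in untreated mice, a difference of 1.11 ± 0.23 (SE, adjusted p = 0.0154). Triobp, an actin-binding protein, differed by 1.01 ± 0.25 (SE, adjusted p = 0.0268), and Fabp6, the ileal bile acid-binding protein, by 0.93 ± 0.24 (SE, adjusted p = 0.0308). The adjusted p was 0.110 for Triobp, 0.0629 for Fabp6 and 0.0844 for Lgals2 without the pair of arrays that stood apart.

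Hk2, hexokinase of the first step of glycolysis, lay between 13.2 and 13.5 on control IgG arrays of experiment 7 and at 13.1, 13.2, 13.2 and 13.1 in untreated mice, and rose by 0.28 ± 0.05 over both experiments (SE, adjusted p = 0.00624). Pfkp, a phosphofructokinase, rose by 0.17 ± 0.04 (SE, adjusted p = 0.0230), and these were the called members of 18 hypoxia and glycolysis genes. Without the pair of arrays that stood apart the adjusted p was 0.0115 for Hk2 and 0.0829 for Pfkp. Of 20 fatty acid oxidation genes 3 fell, with Acot1, an acyl-CoA thioesterase, at -0.77 ± 0.16 (SE, adjusted p = 0.0160), Acaa2, a thiolase of beta-oxidation, at -0.21 ± 0.05 (SE, adjusted p = 0.0233) and Cpt1a, which admits fatty acids to mitochondria, at -0.17 ± 0.05 (SE, adjusted p = 0.0394). That count was 1 without untreated mouse 2 or 3 of experiment 7 or untreated mouse 5 of experiment 10. Among 9 lipid droplet and adipocyte genes, the droplet coat protein Plin2 and the lipase Pnpla2 fell by 0.23 ± 0.06 and 0.22 ± 0.06 (SE). Plin2 passed in 14 and Pnpla2 in 6 of 23 fits that left out 1 mouse. None of 26 oxidative phosphorylation genes passed, and their differences lay between -0.01 and 0.12.

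Of 20 glucocorticoid-responsive genes, 5 fell and none rose. Angptl4, an inhibitor of lipoprotein lipase also induced by fatty acids and hypoxia, lay between 7.39 and 9.33 on control IgG arrays of experiment 7, against 10.9, 11.4, 11.4 and 8.73 in untreated mice, and fell by 1.60 ± 0.35 over both experiments (SE, adjusted p = 0.0175). The metallothionein Mt2 fell by 0.73 ± 0.18 (SE, adjusted p = 0.0268), Pik3ip1, an inhibitor of PI3 kinase, by 0.71 ± 0.20 (SE, adjusted p = 0.0429), and Tsc22d3, the glucocorticoid-induced leucine zipper, by 0.43 ± 0.11 (SE, adjusted p = 0.0250). The kinase Sgk1 was the fifth. The count was 1 without untreated mouse 2 of experiment 7, untreated mouse 2 of experiment 10 or the pair that stood apart, 2 without untreated mouse 3 of experiment 7 or mouse 5 of experiment 10, and 9 without untreated mouse 5 of experiment 7. The endoplasmic reticulum chaperone genes Creld2 and Sdf2l1 rose by 0.43 ± 0.12 and 0.35 ± 0.10 (SE, adjusted p = 0.0335 and 0.0456), out of 18 chaperone genes. In experiments 7 and 10 Creld2 differed by 0.19 and 0.69, and Sdf2l1 by 0.13 and 0.59. Without the pair of arrays that stood apart the adjusted p was 0.117 for Creld2 and 0.182 for Sdf2l1.

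Genes of cell division were slightly higher in their fitted levels, 24 of 24 above 0 with a median of 0.27, and 1 passed, the kinetochore motor Cenpe at 0.54 ± 0.16 (SE, adjusted p = 0.0492). That 1 call among 24 lies near the 2.25% called higher over all genes. Mcm10, Rad54l and Hirip3, outside that list, passed and were chosen after their values were seen: the replication factor Mcm10 at 0.79 ± 0.20 (SE, adjusted p = 0.0297), the recombination protein Rad54l at 0.78 ± 0.22 (SE, adjusted p = 0.0439) and the histone-binding protein Hirip3 at 0.69 ± 0.18 (SE, adjusted p = 0.0291). Without the pair of arrays that stood apart their adjusted p values were 0.129, 0.181 and 0.110. The differences were larger in size in experiment 10, as they were for 62.4% of all tested genes. For Mcm10, Rad54l and Hirip3 the test of a change between experiments did not pass (adjusted p = 0.36, 0.325 and 0.28). In experiments 7 and 10 Mcm10 differed by 0.37 and 1.22, Rad54l by 0.24 and 1.34 and Hirip3 by 0.18 and 1.21. The median of the cell division list was 0.11 in experiment 7 and 0.45 in experiment 10.

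Of 18 goblet cell genes 1 fell, the mucin core glycosyltransferase B3gnt6 by 0.51 ± 0.13 (SE, adjusted p = 0.0267). Over all genes 3.42% were lower, so 1 call among these 18 genes, or among the 16 that follow, lies near that background. Among 16 antimicrobial genes of the epithelium, the acute phase protein Saa3 fell by 0.93 ± 0.25 (SE, adjusted p = 0.0329), with means of 13.5 in control IgG mice and 14.4 in untreated mice. Alox5ap, which serves leukotriene synthesis in tuft cells and also in myeloid cells, fell by 1.59 ± 0.40 (SE, adjusted p = 0.0268) and was the called member among 5 tuft cell genes. Without the pair of arrays that stood apart its adjusted p was 0.0725. None of 13 enteroendocrine, 15 crypt stem cell, 16 smooth muscle, 12 neuron and glia, 13 B and plasma cell, 5 dendritic cell, 4 mast cell and eosinophil or 15 circadian clock genes passed.

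**Figure D5:**
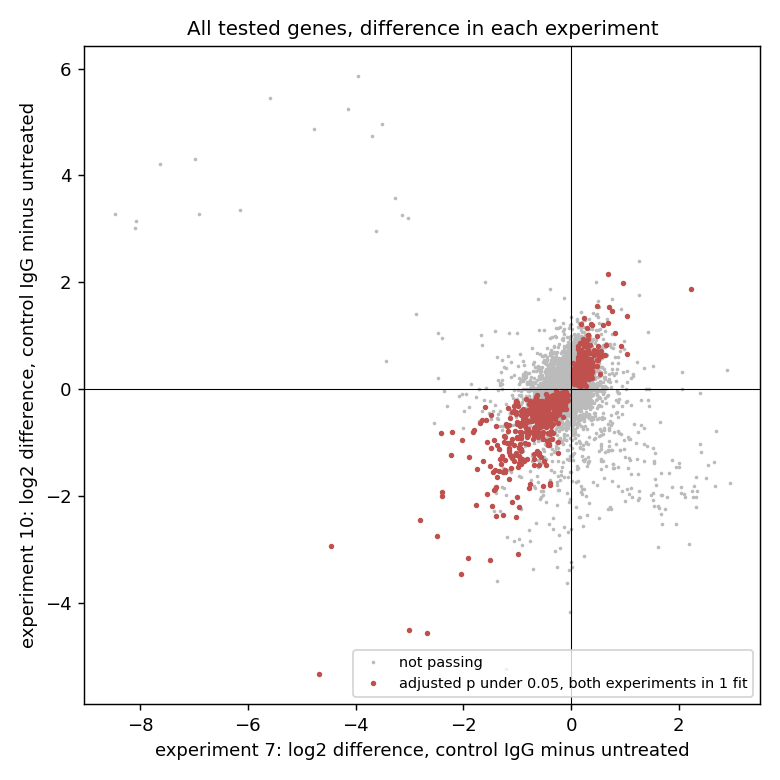
Log2 difference, control IgG minus untreated, in experiment 7 (x axis) and experiment 10 (y axis) for each of the 12534 tested genes, with the 711 called genes in red. Called genes lie where both differences have the same sign, while a group of genes at the upper left, lower in experiment 7 and higher in experiment 10, holds the exocrine pancreas markers.

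The experiments, which share no array, were also fitted alone. Neither gave a call: in experiment 7, 0 genes (0%) passed and 1549 had an unadjusted p under 0.05, with 456 higher and 1093 lower. In experiment 10, 0 genes (0%) passed and 3350 had an unadjusted p under 0.05, with 2369 higher and 981 lower. The experiment 7 count was 611 without untreated mouse 5, and the experiment 10 count was 1027 without untreated mouse 1. Across genes, which are not independent replicates, the differences of the experiments had a Pearson r of -2e-04 and a Spearman rho of 0.30, and the pancreas markers with their opposite differences are among the genes compared. Of the 433 genes with an unadjusted p under 0.05 in both, 400 had the same sign, against 61.5% of all genes. The test of whether the difference changed between the experiments passed for 0 genes (0%), with 1605 at an unadjusted p under 0.05. It passed for 46 genes without untreated mouse 1 of experiment 10. The smallest p values were those of E2f1, a cell cycle transcription factor, Spon2, Sema3g, Zfp697 and Gtf3c4, none of which passed (adjusted p = 0.187 each). E2f1 differed by -0.16 in experiment 7 and by 1.08 in experiment 10. The difference of Spon2, a matrix protein, was -0.87 in experiment 7 and 0.45 in experiment 10, and Sema3g, a semaphorin of vessels, gave -1.11 and 0.51. For Zfp697 the differences were -0.40 and 0.68 in experiments 7 and 10, and for Gtf3c4, a subunit of an RNA polymerase III factor, -0.11 and 0.15.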

How the data were processed

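Total RNA of mouse colon was labelled and hybridised to Affymetrix arrays, 1 per mouse. The authors deposited a table of log2 values per probe set for 72 arrays, and the submitters' processing notes name RMA, GCRMA, R 2.11.1 and limma 3.4.5, without saying which of them made this table. A deposited log2 value has no read depth, and the number of arrays limits precision. Of 45101 probe sets, 34945 had 1 gene symbol, 932 had several, 9160 had none and 64 were controls, and 99.42% of the first kind were matched to a current symbol by Entrez identifier. The probe set with the highest mean over all arrays stood for each of 18193 genes, and 12534 genes whose probe set exceeded 2.42, the 40th percentile of probe set means, were tested. Levels of different probe sets are not compared.

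The main fit used limma 3.58.1 in R 4.3.3 on the 23 arrays with terms for group and experiment, eBayes moderation and Benjamini-Hochberg adjustment over all tested genes, and called an adjusted p under 0.05. Each experiment alone and the change of the difference between experiments were fitted likewise. Errors beside differences are standard errors and those beside means are standard deviations. Experiment and the run in which arrays were processed cannot be told apart. The labels number the mice but do not state separate cages, and p-values measure the spread between these mice. Alternatives are given in the closing section; leaving out the pair of untreated arrays of experiment 10 and the tissue marker covariates were added after seeing the data. The fit was tested on simulated data. The comparison and the gene lists were chosen with earlier results of these data known. Named genes were the 8 largest rises and 8 largest falls among called genes of the same sign in both experiments, up to 4 called members of each list, fixed TNF, TWEAK, NF-kB and Fc receptor genes, and the 5 smallest p values of the between-experiment test. Unnamed clones and predicted genes were left out, and other genes are marked in the text as chosen after their values were seen. Promoters came from the RefSeq table for GRCm38.p6.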

Additional observations from a re-analysis of the deposited data

Results flagged for a closer look

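Dixon's criterion was applied to each named gene in each group of each experiment, and a mouse was picked out when its gap to the nearest other mouse was too large a share of the group's range. It picked out 34 of 388 sets of values. Chance alone does so in about 1 in 20 sets of normally distributed values. These sets share the same mice and are not independent, so an excess over that share was not tested. Untreated mouse 5 of experiment 7 accounted for 10 of the 34. That mouse was the lowest of its group for Cyp1b1 at 3.71 log2 units (next mouse 9.48), Cfp at 8.37 log2 units (next mouse 9.98), C1ra at 7.68 log2 units (next mouse 8.65), Nfkbie at 7.40 log2 units (next mouse 8.54). It was also the lowest for Csf1 at 6.80 (next 7.91), Adamts5 at 6.73 (next 8.28), Vwf at 7.89 (next 9.13), Angptl4 at 8.73 (next 10.9), Galc at 9.14 (next 9.46). For the interferon-stimulated gene Mx1 it was the highest, at 8.51 against 7.56 in the next mouse. Among control IgG mice of experiment 10, a highest value stood apart for Ngp at 2.11 in mouse 1 (next 2.09), Marco at 3.23 in mouse 2 (next 2.20) and Cpt1a at 12.2 in mouse 8 (next 12.0). Among control IgG mice of experiment 10, a lowest value stood apart for Syk at 9.01 in mouse 6 (next 9.30). Among control IgG mice of experiment 7, a highest value stood apart for Lgals2 at 9.76 in mouse 4 (next 8.70), Itgam at 4.47 in mouse 5 (next 3.40), Tsc22d3 at 12.5 in mouse 5 (next 12.1) and Ctsd at 12.1 in mouse 5 (next 12.0). Among control IgG mice of experiment 7, a lowest value stood apart for Gbp8 at 5.42 in mouse 7 (next 6.19), Fabp6 at 9.27 in mouse 1 (next 9.91), Plin2 at 12.2 in mouse 2 (next 12.4), Angptl4 at 7.39 in mouse 3 (next 8.44) and Tnfrsf12a at 7.74 in mouse 3 (next 8.82). Among untreated mice of experiment 10, a highest value stood apart for Batf2 at 8.40 in mouse 1 (next 7.16). Among untreated mice of experiment 10, a lowest value stood apart for Pax8 at 2.41 in mouse 2 (next 3.89), C3ar1 at 9.10 in mouse 1 (next 9.98), Nfkbie at 7.87 in mouse 3 (next 8.69), Timp1 at 11.4 in mouse 3 (next 12.4), Pdpn at 12.2 in mouse 3 (next 12.8), Tnfrsf12a at 7.91 in mouse 3 (next 8.95), Nfkb2 at 7.13 in mouse 1 (next 7.15) and Fcgrt at 10.2 in mouse 2 (next 10.6). Among untreated mice of experiment 7, a highest value stood apart for E2f1 at 7.57 in mouse 1 (next 6.90) and Spon2 at 8.99 in mouse 1 (next 8.24). The value of Ngp picked out in control IgG mice of experiment 10 lies within 0.1 of the floor of the table, where values have no order.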

How the results depend on the processing

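The main count was 711 genes. It was 432 with no filter on dim genes, 1082 over every probe set, 1692 with array weights and 1296 with all 72 arrays sharing the spread, and it ran from 199 to 1788 when 1 mouse was left out. With quantile normalization, group weights, trended and robust moderation, the 64 colitic arrays, an Actb degradation covariate or no experiment term it lay between 486 and 1041. For experiment 7 alone the count was 0, but 3 with no filter and 553 with array weights, and 0 to 611 when 1 mouse was left out. For experiment 10 alone it was 0, but 65 with trended and robust moderation, 848 with the Actb covariate, 5 without untreated mice 2 and 3, and 0 to 1027 when 1 mouse was left out. The change between experiments gave 0 calls, but 2 with all 72 arrays and 0 to 46 when 1 mouse was left out. The causes were not tested. The labels' mouse numbers did not pair the groups: same-numbered mice had correlations of deviations from -0.54 to 0.16, and no mouse correlated best with its own number. With the replicate block, which leaves 7 pairs, 0 genes passed, and the adjusted p of every named gene was above the threshold. No called gene that is named changed sign under any alternative, but 201 of 1095 values under other alternatives and 410 of 1679 values with 1 mouse left out missed the threshold. Named genes that had not passed did change sign. Tnfrsf12a was -0.0693 with the replicate block and -0.0124 without untreated mice 2 and 3 of experiment 10, and Zfp697, Gtf3c4 and Il1b were -0.14, -0.02 and 0.16 without those mice. With 1 mouse left out Tnfrsf12a ran from -0.0325 to 0.188, Gtf3c4 ran from -6e-04 to 0.0497, Il1b ran from -0.49 to 0.11 and Syk from -0.0557 to 0.0401. Signal relative to the floor limits Tnf and the dim Fc receptors, and 4 untreated mice per experiment limit the rest.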
